A study of Homo sapiens with 8 samples.

Results

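Chemokines are small secreted proteins that attract leukocytes by binding G protein-coupled receptors on their surface. The CXC ligands with an ELR motif (CXCL1, CXCL2, CXCL3, CXCL5 and CXCL8) act on CXCR2 and attract neutrophils, CXCL10 and CXCL11 are interferon-inducible ligands of CXCR3 on T cells, and the CC ligands CCL2, CCL5 and CCL20 attract monocytes, T cells and dendritic cells, CCL2 through CCR2 and CCL20 through CCR6. TNF-α, an inflammatory cytokine, activates the transcription factor NF-κB, and many chemokine genes have κB sites in their promoters and AU-rich elements in their mRNAs that shorten the life of the transcript.

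The 10 CXC and CC chemokine genes named here were chosen by symbol and matched to the gene identifiers of the expression tables, which hold 58735 genes. All 10 were matched. They were measured by bulk RNA-seq in U2OS, an established human osteosarcoma cell line, in 4 groups of 2 libraries. Control cells carried a control short hairpin RNA (shRNA), and KD cells carried an shRNA against WSB2, a substrate receptor of a ubiquitin ligase. Each kind of cell was left without stimulation or was stimulated with TNF-α for 5 h. Only 1 cell line was used, and which WSB2 shRNA and which concentration of TNF-α these cells received is not given in the sources used here. The labels do not say that the 2 libraries of a group came from separate cultures, so p-values measure only the spread between these libraries. An exact two-sided permutation test of 2 against 2 libraries cannot go below 0.333, so tests came from limma fitted across all genes.

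Values are FPKM, which divide the fragments of a gene by its length and by the size of the library, and from which whole reads were recovered. Libraries held between 15601098 and 18677023 reads in genes. WSB2 itself was at 27.7 and 28.0 FPKM in unstimulated control cells, 8.38 and 8.52 in unstimulated KD cells, 25.0 and 25.3 in stimulated control cells, and 9.00 and 9.18 in stimulated KD cells, and thus followed the labels. The unstimulated KD libraries stood apart from the other 6, with 4.10% and 4.42% of reads on mitochondrial genes against 1.11% to 2.03%, and a mean GC content of 49.9% and 49.4% against 52.5% to 53.2%. The 3 tests that use these libraries called 7614 to 10328 genes each, and scaling to total reads moved the median log2 change of all genes to 0.13 for KD against control without TNF-α and to -0.19 for TNF-α in KD cells. Of 9 osteoblast lineage markers 6 were measured well enough to test, with COL1A1 and SPARC at 172 FPKM or more in every library. The others were far lower. Group means were 0.674 to 5.34 FPKM for RUNX2, ALPL and SPP1, 0.0340 to 0.0864 for COL1A2 and 0.0730 to 0.224 for BGLAP. SP7 and IBSP had at most 1 read in all. The 8 leukocyte markers summed to 0.232 to 0.951 FPKM, with CD68 at 0 reads, and the 5 endothelial markers to 0.378 to 0.720 FPKM. Of the leukocyte markers, ITGAM was called higher with TNF-α in control cells, from 0.0821 and 0.0406 FPKM to 0.376 and 0.342. In bulk RNA, fewer cells with a transcript and less of it per cell cannot be told apart.

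The members lie on chromosomes 4, 17 and 2 of the GRCh38 genome. CXCL8 (ENSG00000169429, chr4:73740506-73743716, plus strand), CXCL1 (ENSG00000163739, chr4:73869393-73871242, plus strand), CXCL5 (ENSG00000163735, chr4:73995642-73998779, minus strand), CXCL3 (ENSG00000163734, chr4:74036589-74038807, minus strand) and CXCL2 (ENSG00000081041, chr4:74097035-74099293, minus strand) occupy 358788 bases of chromosome 4. CXCL10 (ENSG00000169245, chr4:76021117-76023497, minus strand) and CXCL11 (ENSG00000169248, chr4:76033682-76041415, minus strand) lie 1921823 bases further along the same chromosome. CCL2 (ENSG00000108691, chr17:34255218-34257203, plus strand) and CCL5 (ENSG00000271503, chr17:35871491-35880793, minus strand) are on chromosome 17, and CCL20 (ENSG00000115009, chr2:227805739-227817564, plus strand) is on chromosome 2. All are protein-coding, and no exon of a member overlaps an exon of another gene.

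The promoters of 8 members, all but CCL2 and CCL5, were matched in the RefSeq table used here (assembly GRCh38.p14), which gives 250 bases before and 50 after the start site. They are shown because the letters GGAATTTCC, searched on both strands, stood in 7 of these 8 promoters, against 0.461% of all 35116 promoters of this length. This motif was chosen after the sequences had been seen, so the counts are a description. CCL20 lacked these letters and matched another κB consensus, GGGRNWYYCC, which 5.91% of all promoters hold. In it R is A or G, W is A or T, Y is C or T, and N is any base. CXCL8 held no match to this consensus. Capitals mark the match, each line is 30 bases from 5′ to 3′ on the strand of the gene, and CXCL10, CXCL11 and CCL20 carry the match on the opposite strand.
CXCL1: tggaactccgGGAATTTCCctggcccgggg
CXCL2: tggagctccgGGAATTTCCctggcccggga
CXCL3: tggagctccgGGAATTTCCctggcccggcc
CXCL5: atgagttcagGGAATTTCCccagcatccca
CXCL8: tgcaaatcgtGGAATTTCCtctgacataat
CXCL10: aggagcagagGGAAATTCCgtaacttggag
CXCL11: actcaaagagGGAAATTCCtgtgccataaa
CCL20: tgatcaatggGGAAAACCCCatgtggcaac
The match began 78 bases before the start site in CXCL1 and CXCL3, 77 in CXCL2, 90 in CXCL5, 91 in CXCL8, 176 in CXCL10, 75 in CXCL11 and 79 in CCL20. The windows are chr4:73869305-73869334 for CXCL1 and chr4:73740468-73740497 for CXCL8 on the plus strand, chr4:74099253-74099282 for CXCL2, chr4:74038748-74038777 for CXCL3, chr4:73998748-73998777 for CXCL5, chr4:76023654-76023683 for CXCL10 and chr4:76036126-76036155 for CXCL11 on the minus strand, and chr2:227813753-227813782 for CCL20 on the plus strand. The CXCL1, CXCL2 and CXCL3 promoters are close copies of each other, with 70.4% to 81.4% of bases identical, and their coding sequences are 90.7% to 94.4% identical.

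The 3′ untranslated regions (UTRs) of the members differ in the AU-rich pentamer ATTTA. By the annotation of GENCODE release 29, CXCL5 has 11, CXCL2 10, CXCL8 9, CXCL3 7, CXCL1 5 and CCL20 3, whereas CXCL10, CXCL11 and CCL2 have 1 each and CCL5 has 0. The median over the 3′ UTRs of 17283 genes was 1, and 26.0% of them had 5 or more, as 5 of the 10 members did. The UTRs differ in length, from 268 bases in CCL5 to 1995 in CXCL5. Per kilobase the pentamers were 13.9 in CXCL2, 10.4 in CXCL3, 7.19 in CXCL8, 7.08 in CXCL1, 6.65 in CCL20 and 5.51 in CXCL5. They were 2.66 in CCL2, 1.23 in CXCL10, 0.900 in CXCL11 and 0 in CCL5, against a median of 1.55 over all genes. The stretches below hold the most pentamers of their UTR, in capitals, and are shown for genes whose responses are compared most closely.
CXCL8: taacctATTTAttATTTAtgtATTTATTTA
CXCL3: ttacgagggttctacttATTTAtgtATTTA
CCL20: ttaaagttaaactgtattttatgttATTTA
CCL2: tatgccttaagtaatgttaattcttATTTA
They lie at chr4:73743108-73743137 on the plus strand, chr4:74037090-74037119 on the minus strand, chr2:227817270-227817299 on the plus strand and chr17:34256938-34256967 on the plus strand, all in the 3′ UTR. A match of letters is no measurement of binding or of transcript life.

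Levels of the members spanned from no reads at all to 204 FPKM. CXCL8 was the highest of the 10 in every group. In stimulated cells of either kind the order of the 3 highest was CXCL8, CCL2 and CCL20, and none of these overlapped with its neighbour. In unstimulated control cells the order was CXCL8, CCL5 and CCL2, again without overlap.

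**Figure D1:**
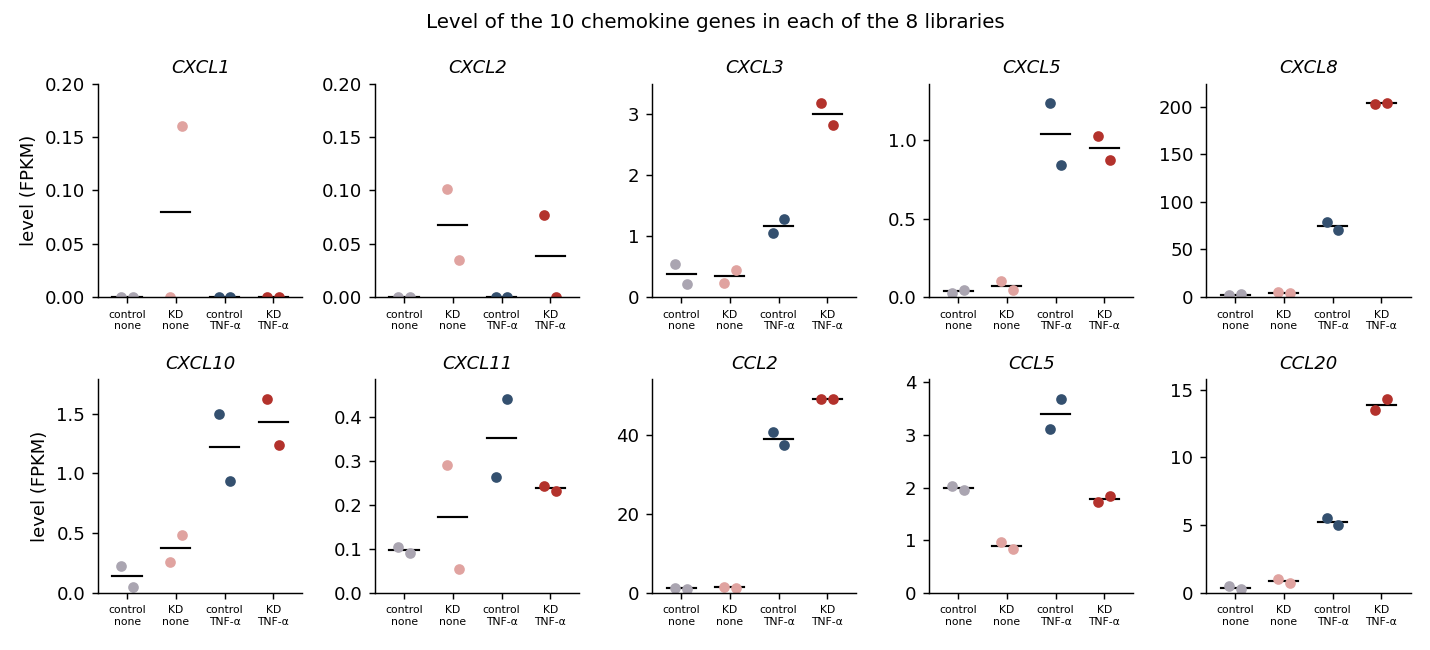
Level of each of the 10 chemokine genes in FPKM (vertical axis, from 0, a scale of its own in each panel) in control and KD cells without (none) and with TNF-α; points are single libraries and lines are means of the 2. CXCL8, CCL2 and CCL20 are near the bottom of their panels without TNF-α and reach 204, 49.2 and 14.3 FPKM with it, and CCL5 is lower in KD than in control cells in both conditions.

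CXCL1 and CXCL2, ligands of CXCR2, had too few reads for any comparison. CXCL1 had 4 reads in unstimulated KD library 2 (0.160 FPKM) and 0 in the other 7 libraries, and CXCL2 had 3 and 1 reads in the unstimulated KD libraries, 2 in stimulated KD library 1 and 0 in the other 5. A count of 0 allows a level of up to 0.117 to 0.154 FPKM for CXCL1 and 0.116 to 0.133 FPKM for CXCL2 at the depths of these libraries, counting 3 reads and counting error only. No response of either gene to TNF-α was detectable at this depth. Their coding sequences are close to that of CXCL3, and 5.00% of the 100-base stretches of CXCL2 and 3.27% of those of CXCL3 occur in the other gene, so a small part of the reads of these genes could be misassigned. No 100-base stretch of CXCL1, CXCL5, CXCL8, CXCL10, CXCL11, CCL2 or CCL20 occurs in another gene, and 6.29% of those of CCL5 do. The other 8 members were among the 16528 genes tested, and counts of members below are of these 8.

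CXCL8, the gene of interleukin-8, which attracts and activates neutrophils, was measured at 2.38 and 2.54 FPKM in unstimulated control cells and at 4.97 and 4.24 FPKM in unstimulated KD cells. With TNF-α it was at 78.7 and 69.9 FPKM in control cells and at 204 FPKM in both KD libraries. No library of a group overlapped with a library of another. The ratio of means for TNF-α against none was 30.2 in control cells and 44.3 in KD cells. On the scale of log2(FPKM + 1) it rose by 4.44 (SE 0.0936, adjusted p = 4.08e-07) in control cells and by 5.20 (SE 0.0936, adjusted p = 1.65e-07) in KD cells.

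Between KD and control cells, CXCL8 was 2.74 times as high with TNF-α, a log2 difference of 1.45 (SE 0.0936, 95% interval 1.23 to 1.66, adjusted p = 0.00398). Without TNF-α it was 1.87 times as high, a log2 difference of 0.69 (SE 0.0936, adjusted p = 5.56e-04). Leaving out 1 library at a time, the difference with TNF-α ranged from 1.36 to 1.53, but its adjusted p was 0.0578 without stimulated control library 2, 0.0739 without stimulated KD library 1 and 0.113 without stimulated KD library 2. Without TNF-α the difference was 0.11 (adjusted p = 0.337) once each library was corrected for GC content and gene length, a setting chosen after the data were seen. CXCL8 has a GC content of 33.4%, and the unstimulated KD libraries had the lowest GC content. The part of GC content in this difference was not tested.

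CXCL3, another CXCR2 ligand, was at 0.541 and 0.208 FPKM (18 and 8 reads) in unstimulated control cells and at 0.227 and 0.444 FPKM (10 and 19 reads) in unstimulated KD cells. With TNF-α it reached 1.05 and 1.29 FPKM in control cells and 3.18 and 2.82 FPKM in KD cells. The unstimulated groups overlapped, and the stimulated groups did not. TNF-α raised CXCL3 by 0.66 on the log2 scale in control cells (SE 0.143, adjusted p = 0.0465) and by 1.59 in KD cells (SE 0.143, adjusted p = 9.66e-05), ratios of means of 3.11 and 8.95. The call in control cells was kept in 3 of 18 alternative analyses, with adjusted p up to 0.260.

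With TNF-α, the mean of CXCL3 in KD cells was 2.57 times that in control cells, a log2 difference of 0.89 (SE 0.143, 95% interval 0.55 to 1.22) that missed the threshold over all genes (adjusted p = 0.117). In 3 of 17 alternatives it passed, with an adjusted p of 0.0337 without unstimulated control library 1, 0.0343 without unstimulated control library 2 and 0.0492 after the GC and length correction. Without TNF-α the difference was -0.04 (95% interval -0.37 to 0.30, adjusted p = 0.845). The counting error of the reads alone put the ratio with TNF-α between 1.99 and 3.38 (95% interval).

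CXCL5, an epithelial CXCR2 ligand, had 1 and 2 reads in unstimulated control cells and 5 and 2 in unstimulated KD cells, which are 0.0263, 0.0455, 0.0994 and 0.0408 FPKM. With TNF-α it was at 1.24 and 0.843 FPKM in control cells and at 1.03 and 0.872 FPKM in KD cells. It rose with TNF-α in control cells (log2 change 0.97, SE 0.0998, adjusted p = 0.00170) and in KD cells (log2 change 0.86, SE 0.0998, adjusted p = 2.32e-04). The latter was 1.43 after the GC and length correction, which exceeds log2(FPKM + 1) of the stimulated KD mean itself, 0.949 FPKM. The ratio of reads was 28.5 in control cells, with a counting interval of 9.43 to 141 because only 3 reads stood in the denominator. KD and control cells overlapped with TNF-α, with a log2 difference of -0.06 (95% interval -0.29 to 0.17, adjusted p = 0.966).

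CXCL10 and CXCL11, the CXCR3 ligands, were low in every library. CXCL10 was at 0.227 and 0.0491 FPKM in unstimulated control cells, 0.257 and 0.485 in unstimulated KD cells, 1.50 and 0.937 in stimulated control cells and 1.62 and 1.24 in stimulated KD cells. It rose with TNF-α by 0.95 in control cells (SE 0.155, adjusted p = 0.0160) and by 0.83 in KD cells (SE 0.155, adjusted p = 0.00228) on the log2 scale, and the stimulated groups overlapped between KD and control (log2 difference 0.14, 95% interval -0.22 to 0.50, adjusted p = 0.934). In control cells its adjusted p was 0.0909 without stimulated control library 1, and in KD cells its change was 1.44 after the GC and length correction. The corrected change of CXCL10 exceeds log2(FPKM + 1) of its stimulated KD mean, 1.43 FPKM. CXCL11 had between 2 and 13 reads per library, at most 0.442 FPKM, and passed none of the 5 tests. Its log2 change with TNF-α was 0.30 in control cells (95% interval 0.06 to 0.53, adjusted p = 0.181) and 0.08 in KD cells (95% interval -0.15 to 0.32, adjusted p = 0.492). The latter was 0.74 after the GC and length correction and passed (adjusted p = 0.00139). That value exceeds log2(FPKM + 1) of the stimulated KD mean itself, 0.237 FPKM. KD cells had 15 reads of CXCL11 with TNF-α and 13 without, so the corrected call is no measure of a rise in reads.

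CCL2, the monocyte attractant also called MCP-1, was at 1.21 and 0.902 FPKM in unstimulated control cells and at 1.35 and 1.30 FPKM in unstimulated KD cells. TNF-α brought it to 40.7 and 37.5 FPKM in control cells and to 49.2 and 49.1 FPKM in KD cells. The ratio of means was 37.0 in control and 37.1 in KD cells, with log2 changes of 4.29 (SE 0.0970, adjusted p = 5.61e-07) and 4.43 (SE 0.0970, adjusted p = 4.38e-07). The stimulated KD libraries were both above the stimulated control libraries, at a ratio of 1.26 and a log2 difference of 0.32 (95% interval 0.10 to 0.55) that did not pass (adjusted p = 0.379).

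CCL20, which attracts cells bearing CCR6, was at 0.460 and 0.254 FPKM (11 and 7 reads) in unstimulated control cells and at 0.981 and 0.715 FPKM (31 and 22 reads) in unstimulated KD cells. With TNF-α it was at 5.52 and 4.96 FPKM in control cells and at 13.5 and 14.3 FPKM in KD cells, and no groups overlapped. It rose with TNF-α by 2.20 in control cells (SE 0.127, adjusted p = 8.21e-05) and by 3.01 in KD cells (SE 0.127, adjusted p = 9.38e-06). The ratios of means were 14.7 and 16.4.

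CCL20 was higher in KD than in control cells with TNF-α by 2.65 times (log2 difference 1.26, SE 0.127, 95% interval 0.96 to 1.55, adjusted p = 0.0209) and without it by 2.38 times (log2 difference 0.45, SE 0.127, adjusted p = 0.0170). The call with TNF-α held in 8 of 17 alternatives. It was lost on leaving out either unstimulated KD library (adjusted p of 0.0596 and 0.0615), either stimulated control library (0.183 and 0.241) or either stimulated KD library (0.197 and 0.265), while the difference stayed between 1.19 and 1.32. Without TNF-α the difference was -0.12 after the GC and length correction (adjusted p = 0.376). The adjusted p was 0.0574 without unstimulated control library 2 and 0.109 without unstimulated KD library 1, and the GC content of CCL20 is 35.5%.

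CCL5, the T cell and monocyte attractant also called RANTES, was lower in KD than in control cells. It was at 2.03 and 1.95 FPKM in unstimulated control cells and at 0.968 and 0.822 FPKM in unstimulated KD cells. With TNF-α it was at 3.12 and 3.69 FPKM in control cells and at 1.72 and 1.84 FPKM in KD cells, below the unstimulated control level. Without TNF-α, CCL5 fell by 0.66 on the log2 scale in KD cells (SE 0.109, adjusted p = 0.00137), to 0.450 times the control mean. With TNF-α the log2 difference was -0.66 (95% interval -0.91 to -0.41) and the ratio 0.524, but it missed the threshold over all genes (adjusted p = 0.117).

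TNF-α raised CCL5 by 0.56 in control cells (SE 0.109, adjusted p = 0.0335) and by 0.55 in KD cells (SE 0.109, adjusted p = 0.00291), the smallest change of the 7 members called. The call in control cells was kept in 3 of 18 alternatives. In KD cells the change was 0.20 after the GC and length correction and did not pass (adjusted p = 0.113). After the GC and length correction the difference between KD and control was -0.30 without TNF-α (adjusted p = 0.0309) and -0.66 with it (adjusted p = 0.0447), so that it passed in both conditions. The GC content of CCL5 is 53.3%.

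**Figure D2:**
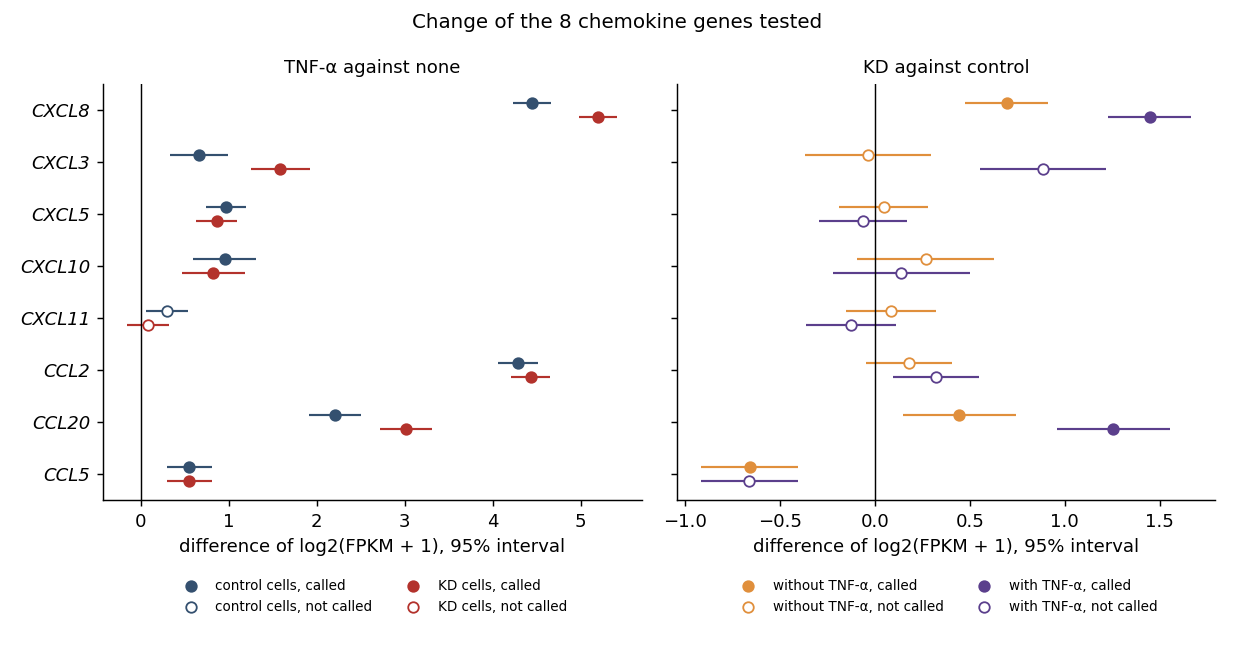
Difference of log2(FPKM + 1) (horizontal axes) for the 8 chemokine genes tested, for stimulated against unstimulated control and KD cells (left) and for KD against control cells without and with TNF-α (right); bars are 95% intervals from limma, and filled points have an adjusted p under 0.05. All members lie to the right of 0 on the left, and on the right CXCL8 and CCL20 lie highest with TNF-α, at 1.45 and 1.26, and CCL5 is at -0.66 in both conditions.

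Counted over the members, 7 of the 8 tested were called higher with TNF-α in control cells and 0 lower, by limma at a Benjamini-Hochberg adjusted p under 0.05, where 3.10% of all genes tested were called higher and 1.14% lower. The median log2 change was 0.96 over the 8 members and 0.01 over all genes. All 8 had both stimulated control libraries above both unstimulated ones, as did 22.6% of all genes. At an unadjusted p under 0.05, the calls would add CXCL11 alone to these 7, but the share of all genes that pass this looser limit is not given here. With each library left out the count was 4 to 6, and it was 4 without stimulated control library 1.

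In KD cells, 7 of 8 members were called higher with TNF-α and 0 lower, all but CXCL11 as in control cells. With the GC and length correction, CXCL11 was called and CCL5 was not, but CXCL11 had 15 reads with and 13 without TNF-α. Here 31.1% of all genes were called higher and 31.4% lower, and the comparison includes the unstimulated KD libraries. The median log2 change was 1.23 over the members and -0.01 over all genes. In both comparisons CXCL8 and CCL2 showed the largest log2 changes and CXCL11 the smallest.

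In stimulated cells, 2 of 8 members were called higher in KD than in control cells, CXCL8 and CCL20, against 0.0605% of all genes, and 0 were called lower, against 0.0545%. The 2 were among 10 genes called higher in all. At an unadjusted p under 0.05 from limma, CXCL3 and CCL2 were also higher and CCL5 was lower. The share of all genes that pass this looser limit is not given here, so these 3 are not counted as calls. For 4 members both stimulated KD libraries exceeded both stimulated control libraries (CXCL8, CXCL3, CCL20 and CCL2), as in 23.9% of all genes, and for 2 they were lower (CCL5 and CXCL11), as in 22.3%. The 6 libraries without the unstimulated KD cells gave an adjusted p of 0.0113 for CXCL8 and 0.0572 for CCL20. Voom on the recovered reads called both, at log2 differences of 1.46 (adjusted p = 3.85e-05) and 1.40 (adjusted p = 0.00290).

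For KD against control without TNF-α, 2 members were called higher (CXCL8 and CCL20) and 1 lower (CCL5), where 29.8% of all genes were called higher and 30.2% lower. The share of members is not above that of all genes. After the GC and length correction 0 were called higher and 3 lower, CCL5, CXCL5 and CXCL11. With this correction 8633 of 16520 genes were called, 46.0% of them higher. Reads of CXCL5 and CXCL11 were not lower in KD cells, at 7 against 3 and 13 against 6. Their corrected differences, -0.46 and -0.49, are larger in size than log2(FPKM + 1) of their control means, 0.0359 and 0.0979 FPKM. These 2 calls are thus no measure of a fall in reads. Scaled to total reads, 65.3% of the genes called in this comparison were higher in KD cells, against 49.7% with the scaling of the authors.

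The interaction, that is the KD effect in stimulated cells minus that in unstimulated cells, was positive at an adjusted p under 0.05 for CXCL3 (0.92, SE 0.203, adjusted p = 0.00840), CCL20 (0.81, SE 0.180, adjusted p = 0.00868) and CXCL8 (0.75, SE 0.132, adjusted p = 0.00377). These 3 of 8 stand beside 23.8% of all genes with a positive and 22.3% with a negative interaction. For CCL2 it was 0.14 (95% interval -0.18 to 0.46, adjusted p = 0.431), and for CCL5 -0.0013 (95% interval -0.36 to 0.36, adjusted p = 0.995). After the GC and length correction the interaction was 1.40 for CCL20, 1.35 for CXCL8 and 0.67 for CXCL3, all called, and that of CCL2 was 0.39 and passed as well (adjusted p = 0.0274), while that of CCL5 was -0.35 (adjusted p = 0.0798). The answer depends on the scale for genes near 1 FPKM, because adding 1 compresses the unstimulated level. With voom, which works on the recovered reads and adds no such constant to FPKM, CXCL8 kept a difference of 0.56 (adjusted p = 0.0450), CXCL3 was at 1.42 (adjusted p = 0.0855) and CCL20 at 0.14 (adjusted p = 0.842).

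As a ratio of means, the response of CXCL3 to TNF-α was 8.95 in KD cells against 3.11 in control cells. The ratio of CXCL8 was 44.3 against 30.2, that of CCL20 16.4 against 14.7, that of CCL5 1.99 against 1.71, and that of CCL2 37.1 against 37.0. The other 3 members tested went the other way, with ratios of reads, scaled to library size, of 13.5 against 28.5 for CXCL5, 3.90 against 9.28 for CXCL10 and 1.36 against 3.61 for CXCL11. Means in KD cells were 2.38 times the control mean without and 2.65 times with TNF-α for CCL20, and 0.895 and 2.57 times for CXCL3. The counting intervals of the ratios of reads were 1.40 to 4.41 and 2.29 to 3.06 for CCL20. For CXCL3 they were 0.524 to 1.63 and 1.99 to 3.38. The values without TNF-α use the unstimulated KD libraries. There the log2 difference after the GC and length correction was -0.12 for CCL20 and 0.21 for CXCL3.

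The summed level of the 10 members was 6.51 ± 0.662 FPKM (SD, n = 2) in unstimulated control cells, 8.77 ± 0.668 in unstimulated KD cells, 126 ± 8.79 in stimulated control cells and 274 ± 0.343 in stimulated KD cells. CXCL8 made up 38.1% ± 5.66, 52.4% ± 1.91, 59.0% ± 0.783 and 74.3% ± 0.0614 of that sum in the same order. CCL2 made up 31.1% ± 0.386 in stimulated control and 17.9% ± 0.0487 in stimulated KD cells, although its own level was higher in the latter. CCL5 was 30.7% ± 2.24 of the sum in unstimulated control cells and 0.649% ± 0.0297 in stimulated KD cells.

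**Figure D3:**
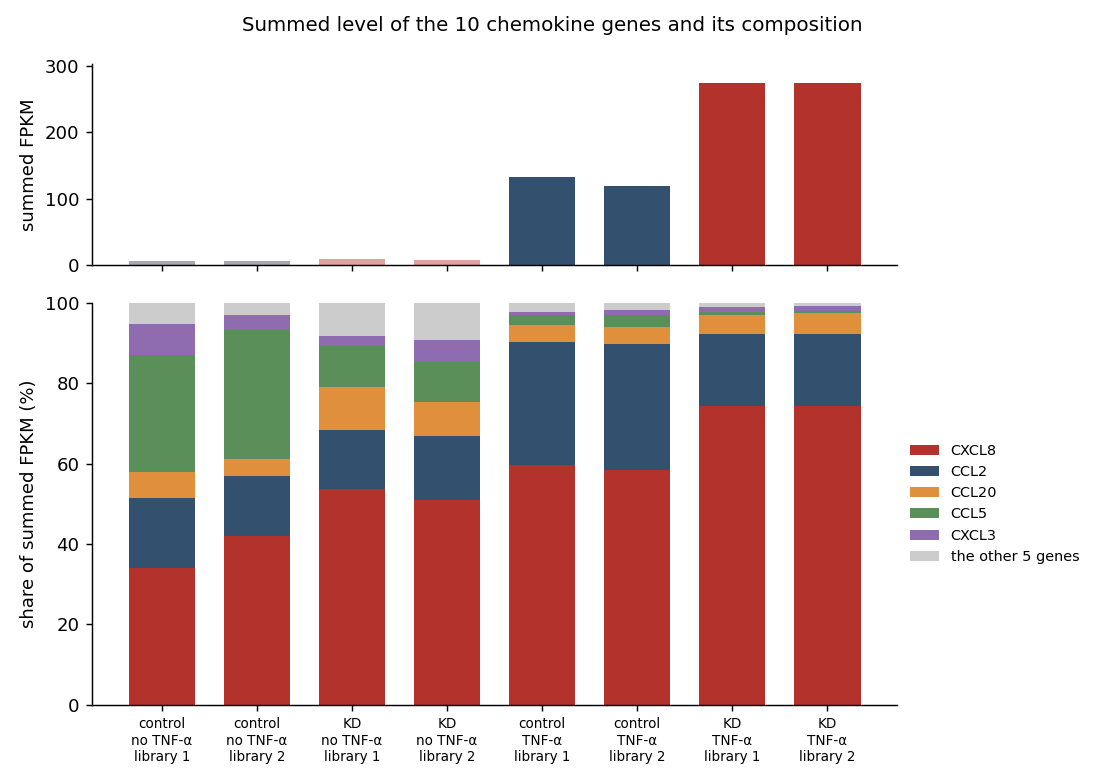
Summed level of the 10 chemokine genes in FPKM (top) and the percentage of it that each gene contributes (bottom) in each of the 8 libraries, with CXCL1, CXCL2, CXCL5, CXCL10 and CXCL11 joined in grey. CXCL8 and CCL2 together fill most of each bar with TNF-α, the share of CXCL8 is highest in stimulated KD cells at 74.3%, and CCL5 fills 30.7% in unstimulated control cells.

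Across the 8 libraries, which share 4 groups so that r follows the differences between groups, log2(FPKM + 1) of CXCL8 moved most closely with CCL20 (Pearson r of 0.992, n = 8) and CCL2 (0.985, n = 8). The lowest r of CCL5 with another member was with CXCL3, at 0.305. Among 2188 genes with a standard deviation of at least 0.5, the non-members most like CXCL8 were NEDD4L (0.995), BCL2A1 (0.994) and BHLHE40 (0.993). Those most like CCL20 were KRTAP2-3, G0S2 and RGMB (each 0.996), and those most like CXCL3 were KRTAP2-4 (0.985), NLRP3 (0.973) and DUSP5 (0.972). KRTAP2-3 and KRTAP2-4 belong to a family of near copies, so their reads could be split between them.

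The genes most like CCL2 were CSF2 (1.00), PTX3 (0.999) and C3 (0.998). CSF2, the gene of the growth factor GM-CSF, had 79.3 and 77.1 FPKM in stimulated control cells and 111 and 105 FPKM in stimulated KD cells. The genes most like CXCL5 were BTN2A2 (0.988), TNFRSF9 (0.986) and SOD2 (0.985), and those most like CXCL10 were C3orf52, BIRC3 (each 0.960) and TRIML2 (0.959). CCL5 was most like KRT75 (0.956), ATF5 and KCNG1 (each 0.919), and CXCL11, with few reads, had no r above 0.829, with AP002833.2, followed by TGFB2-AS1 (0.804) and AC241377.3 (0.778).

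Of 36 other chemokine ligands, 18 had at least 1 read and 12 were tested. With TNF-α in control cells 2 were called higher, CCL7 and CCL4, and 0 lower, against 3.10% and 1.14% of all genes tested. CCL7, a monocyte attractant encoded beside CCL2, had 0 reads in both unstimulated control libraries and 0.947 and 0.902 FPKM in the stimulated ones (log2 change 0.94, SE 0.0635, adjusted p = 1.79e-04), and 0.872 and 0.953 FPKM in stimulated KD cells. CCL4 (log2 change 0.73, SE 0.153, adjusted p = 0.0427) was at 0.0328 and 0.114 FPKM before and 0.495 and 1.12 FPKM after TNF-α. CCL4 and CCL4L2, like CCL3 and CCL3L1, are near-identical pairs, so the split of reads between them is uncertain.

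In stimulated cells CCL3 was at 0.631 and 0.391 FPKM in control and 1.51 and 2.29 FPKM in KD cells, CCL3L1 at 0.898 and 0.795 against 2.09 and 2.54, CCL4 at 1.79 and 1.68 in KD cells, and CCL4L2 at 0.540 and 0.371 against 0.746 and 1.13. None of the 12 passed the test of KD against control with TNF-α, and the adjusted p of these 4 was 0.168, 0.117, 0.257 and 0.289. The ligands that were already present without TNF-α behaved in another way. CCL26 and CCL24, eosinophil attractants, were at 17.8 and 12.6 and at 10.2 and 11.3 FPKM in unstimulated control cells. CXCL16, a membrane-bound ligand, was at 11.1 and 9.51 FPKM, and CXCL14 at 9.46 and 7.75. None of these 4, and neither CX3CL1, CCL28 nor XCL1, was called with TNF-α in control cells. In KD cells without TNF-α, where 30.2% of all genes were lower, CXCL16 fell by 0.88, CCL24 fell by 0.65 and CCL26 fell by 1.01 on the log2 scale. When TNF-α was added to KD cells, 8 of the 12 ligands were called higher and 1 lower, against 31.1% and 31.4% of all genes. Both comparisons use the unstimulated KD libraries, which stood apart from the others. Means in stimulated KD and unstimulated control cells were 10.9 and 10.3 FPKM for CXCL16, 9.17 and 10.7 for CCL24, and 11.1 and 15.2 for CCL26. These 8 calls are thus not read as induction by TNF-α.

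Of 23 chemokine receptors, 17 had at least 1 read and 5 were tested. Of the receptors of the members, CXCR1 and CCR2 had 0 reads in all 8 libraries together, CXCR2 had 3 and CCR6 had 2, and CXCR3 had at most 3 reads in a group. Of receptors that bind CCL5, CCR1 had 4 reads in unstimulated KD cells and 0 in the other groups, and CCR3 had 14 in unstimulated control, 19 in unstimulated KD, 5 in stimulated control and 3 in stimulated KD cells. ACKR3, an atypical receptor that removes CXCL12 and CXCL11 from the cell surface, was at 19.2 and 17.9 FPKM in unstimulated control cells, 7.06 and 6.93 in unstimulated KD cells, 5.54 and 6.95 in stimulated control cells and 1.64 and 1.88 in stimulated KD cells. With TNF-α it fell by 1.44 in control cells (SE 0.114, adjusted p = 4.37e-04) and fell by 1.54 in KD cells. Against control cells it fell by 1.29 in KD cells without TNF-α and fell by 1.39 with TNF-α (SE 0.114, adjusted p = 0.00883). Stimulated control and unstimulated KD cells thus held similar levels of ACKR3, with overlapping libraries. CCR10 was called higher with TNF-α in control cells (log2 change 0.54, adjusted p = 0.0396) at 0.600 and 0.594 FPKM, and CXCR6, ACKR1 and CCRL2, none above 0.871 FPKM, were not.

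**Figure D4:**
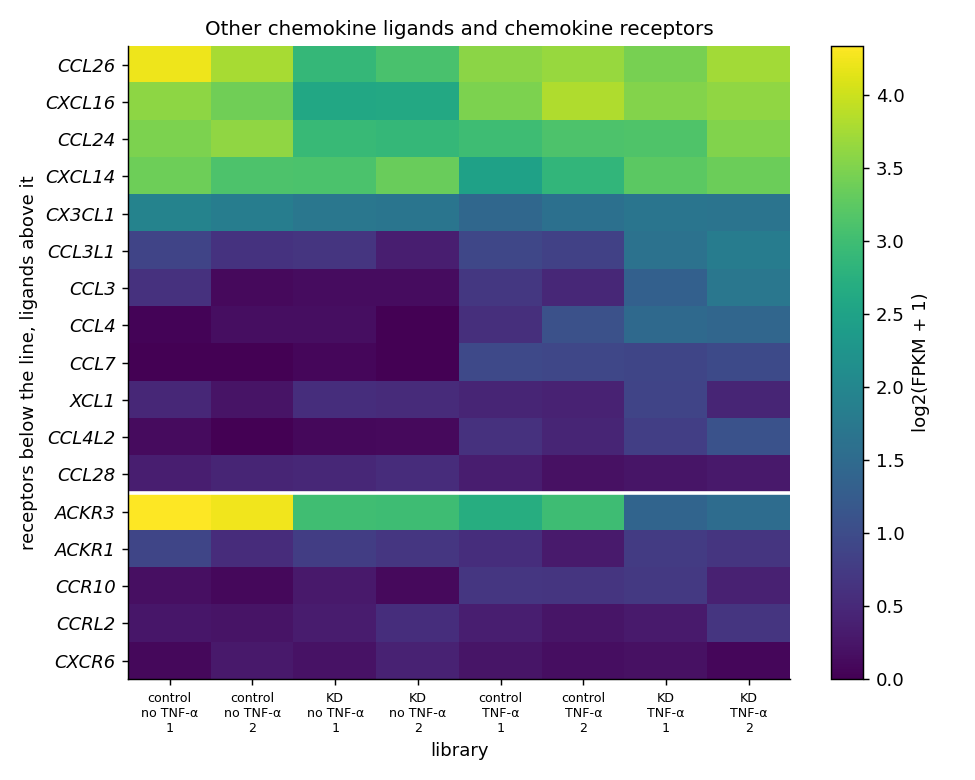
Level as log2(FPKM + 1), shown by colour, of the 12 other chemokine ligands (above the white line) and the 5 chemokine receptors (below it) that were tested, in each of the 8 libraries. CCL26, CXCL16, CCL24 and CXCL14 are present in every library, CCL7 appears with TNF-α, and ACKR3 is highest in unstimulated control cells, at 19.2 and 17.9 FPKM, and lowest in stimulated KD cells, at 1.64 and 1.88.

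Of 17 transcription factors known to act on chemokine promoters, 9 rose and 0 fell with TNF-α in control cells, against 3.10% and 1.14% of all genes tested. The 9 were the NF-κB genes RELB (14.9 to 96.1 FPKM, log2 change 2.61, adjusted p = 1.71e-05), NFKB2 (log2 change 2.03), NFKB1 (1.95) and RELA (0.51), the AP-1 genes FOSL1 (1.65), ATF3 (0.73) and JUN (0.57), and IRF1 (1.73) and CEBPB (0.49). None of the 17 passed the test of KD against control with TNF-α, where RELA was at 41.0 and 39.9 FPKM in control libraries and at 41.4 and 39.3 FPKM in KD libraries. Of 11 RNA-binding proteins that act on chemokine mRNAs, ZC3H12A (4.71 to 17.2 FPKM, log2 change 1.69, adjusted p = 6.68e-04) and ZFP36L1 (38.4 to 80.6 FPKM, log2 change 1.06, adjusted p = 0.00123) rose with TNF-α in control cells. None of the 11 passed the test of KD against control with TNF-α.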

How the data were processed

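The authors deposited FPKM values for 58735 genes in each of 8 libraries. Per the submitters' processing notes, CASAVA 1.8, fastp, HISAT2 2.0.5, featureCounts 1.5.0-p3 and DESeq2 1.20.0 were used with GRCh38. The strand setting and the handling of reads with several hits are not given in the sources used here. Identifiers, positions and lengths matched GENCODE release 29 for 58735 genes. Each deposited FPKM value times gene length was a whole multiple (within 0.05) of 1 constant per library in 100% of cases, which gave the reads. The library sizes in the deposited values were median-of-ratios sizes over all 8 libraries.

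A gene was kept if 2 libraries had 10 reads or more, scaled to the median depth, and all libraries together 15 (16528 genes). For log2(FPKM + 1), limma 3.58.1 (R 4.3.3) fitted 4 group means over 8 libraries with a trended variance. A gene was called if its p, adjusted by Benjamini-Hochberg, was under 0.05. Folds on this scale understate the change of low genes. The edgeR test named in the paper's Methods was not run, although whole reads were recovered. Alternatives were a pseudocount of 0.1, no filter, total-read and upper-quartile scaling, voom on the recovered reads, only the libraries compared, a replicate block, leaving out each library, and an unadjusted P under 0.05 with an absolute log2 fold change above 1. A correction by splines (5 degrees of freedom) on GC content and gene length, 6 libraries without unstimulated KD cells, and a crossed pairing were added after the data were seen. The correction can move genes with few reads to negative values, which log2(FPKM + 1) cannot take. Ratios of reads have exact 95% counting intervals, which cover counting error only, as does the limit of 3 reads that a count of 0 allows. Python 3.11.15 with numpy 2.4.6, pandas 2.3.3, scipy 1.17.1 and matplotlib 3.10.9 was used for the rest. The test was also tried on simulated reads, with the same dispersion for every gene and changed genes drawn from those with many reads. That trial does not cover members with few reads or the shift of the unstimulated KD libraries.

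The members and all lists (other chemokine ligands, chemokine receptors, transcription factors, RNA-binding proteins, osteoblast, leukocyte and endothelial markers) were chosen with earlier results of these data known. The genes named are the members, WSB2, the ligands and receptors tested, list genes called for TNF-α in control cells or for KD with TNF-α, and the 3 genes most like each member. Markers and receptors without enough reads and a few single values were named after they were seen.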

Additional observations from a re-analysis of the deposited data

Results flagged for a closer look

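For 3 of the 8 chemokine genes tested, the effect of KD differed between stimulated and unstimulated cells by a test of the difference itself (limma, adjusted over 16528 genes). The difference of the log2 differences was 0.92 for CXCL3 (SE 0.203, adjusted p = 0.00840), 0.75 for CXCL8 (SE 0.132, adjusted p = 0.00377) and 0.81 for CCL20 (SE 0.180, adjusted p = 0.00868). Both stimulated KD libraries were above both stimulated control libraries for each of the 3, and 23.8% of all genes passed the same test in the same direction. The unstimulated KD libraries, which had a mean GC content of 49.4% and 49.9% against at least 52.5% in the others, enter each of these values. After the GC and length correction the differences were 0.67 for CXCL3 (adjusted p = 0.0283), 1.35 for CXCL8 (adjusted p = 0.00251) and 1.40 for CCL20 (adjusted p = 0.00296). The call for CXCL8 was kept with voom on the recovered reads (adjusted p = 0.0450) and with log2(FPKM + 0.1) (adjusted p = 0.0142). Those for CXCL3 (adjusted p = 0.0855 and 0.0703) and CCL20 (adjusted p = 0.842 and 0.482) were lost with both. Groups of 2 libraries are too small to look for a single library far from the rest of its group.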

How the results depend on the processing

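Precision was limited by 2 libraries per group and, for CXCL1, CXCL2, CXCL5, CXCL10 and CXCL11, by few reads. CXCL8, CCL2, CCL20 and CXCL5 kept their calls for TNF-α in control and KD cells under every alternative at an adjusted p under 0.05, but CXCL5 did not pass the unadjusted rule with its limit on the fold change in either. For TNF-α in control cells, 4 members were called without a filter and 3 by an unadjusted P under 0.05 with an absolute log2 fold change above 1, and all genes called went from 701 to 368 without a filter, 238 with only the libraries compared, 443 with 6 libraries and 182 by the unadjusted rule. The unadjusted rule called 4 members for TNF-α in KD cells (2374 genes in all), 0 higher and 0 lower without TNF-α (1974 genes), and 0 for the interaction (2058 genes). After the GC and length correction, 0 members were higher and 3 lower for KD without TNF-α, where 8633 of 16520 genes were called, 46.0% of them higher. With the same correction 1 was lower for KD with TNF-α (68 genes in all, against 19). For KD with TNF-α, 1 member was higher with log2(FPKM + 0.1), 1 without a filter (7 genes in all) and 1 with 6 libraries (7 genes), while voom called 52 genes and the 4 libraries compared 39. For the interaction, 1 member was higher with log2(FPKM + 0.1) and 1 with voom.

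Leaving out each library in turn gave 4 to 6 members called higher for TNF-α in control cells (229 to 2130 genes in all), 1 to 3 for KD without TNF-α, 0 to 3 for KD with TNF-α (0 to 98 genes). With the GC and length correction, differences of KD without TNF-α changed sign for CXCL3 (0.21), CXCL5 (-0.46), CXCL10 (-0.26), CXCL11 (-0.49), CCL2 (-0.054) and CCL20 (-0.12), as did the interaction for CXCL5 (0.42), CXCL10 (0.43) and CXCL11 (0.38). For CXCL5, CXCL10 and CXCL11 these corrected differences without TNF-α were larger in size than log2(FPKM + 1) of the control mean. Scaling to total reads turned CXCL3 without TNF-α (0.043) and the interaction of CCL2 (-0.046). The interaction of CCL2 was -0.020 with voom, and that of CCL5 0.22 with voom and 0.18 with log2(FPKM + 0.1). Leaving out 1 library turned small differences, which ranged from -0.061 to 0.23 for CXCL11 with TNF-α in KD cells, from -0.21 to 0.14 for CXCL3 and -0.058 to 0.23 for CXCL11 in KD against control without TNF-α, and from -0.20 to 0.080 for CXCL5 and -0.043 to 0.32 for CXCL10 with it. The interaction ranged from -0.25 to 0.033 for CXCL5, -0.31 to 0.055 for CXCL10 and -0.095 to 0.092 for CCL5. The causes were not tested.

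Scaled to total reads, 31.4% of genes called for TNF-α in KD cells were higher (49.8% as deposited), 60.3% in control cells (73.0%) and 32.9% for the interaction (51.7%), whose median over all genes moved to -0.14. The labels do not say that equal replicate numbers share a culture. Deviations of equally numbered libraries correlated at 0.350 between unstimulated groups, 0.0166 between stimulated groups, -0.128 between control groups and 0.00551 between KD groups. With the replicate number as a block, KD with TNF-α called 10 genes in place of 19, the members CXCL8 and CCL20 included, and TNF-α in control cells called 5 members in place of 7, without CXCL3 and CCL5. A crossed pairing of the control libraries called 6 members and 591 genes.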
